A study of Drosophila melanogaster with 9 samples.

Results

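The tracheal fate and branching regulators described here are 7 genes that start and shape the Drosophila airway: trh, btl, bnl, vvl, rib, salm and uif. They were chosen by name, with earlier results of these data known, so their counts are descriptions. Every probe set annotated with 1 of these symbols was taken. Of the 7 genes, 6 were measured, by 7 probe sets of 14010 in the deposited table, or 6 of 10844 genes. No probe set used here carries the symbol trh, so trh was not analysed here.

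Total RNA of whole dechorionated embryos at stages 13 to 14, when the epidermis closes over the back, was measured on 9 arrays, 3 per group from independently prepared RNA. GOF embryos had the genotype w;UAS-hepACT/+;69B/+, in which an activated Hemipterous (Hep, the kinase that activates Jun N-terminal kinase, JNK) is expressed in the ectoderm by the 69B-GAL4 driver. LOF embryos were y w heprev75/y w hep1, 2 mutant hep alleles over each other, and WT embryos were w, a marker mutation that all 3 groups carry. The labels do not say how LOF embryos were told from their siblings. Embryos came from collections of 2 h that were aged for about 9 h at 25 °C, and a batch was kept when more than 85% were at these stages by dpp staining, so a minority off stage may be present in any group. The study asked which genes follow JNK activity during closure.

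The trachea arises from segmental clusters of ectodermal cells that invaginate and then send out branches without dividing. The bHLH-PAS protein Trachealess (trh) and the POU factor Ventral veins lacking (vvl) set the fate, and the cells then express the FGF receptor Breathless (btl). Branches grow towards nearby cells that make the FGF ligand Branchless (bnl). The BTB-domain factor Ribbon (rib) is needed for branch migration and lumen shape, and the zinc finger factor Spalt major (salm) gives the dorsal trunk its identity. Uninflatable (uif) is an apical EGF-repeat protein that the airway needs to fill with gas. Stages 13 to 14 fall in the period of branch outgrowth and fusion. Most of these genes are also active elsewhere, such as vvl and salm in the nervous system, btl in the ventral midline and rib in the salivary gland. In whole embryos, fewer cells of a type and less RNA per cell cannot be told apart.

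Values are deposited RMA intensities on a linear scale, in whole numbers from 29 to 1331513. Each change is the mean log2(value + 1) of the first named group minus that of the other, and its standard error (SE) comes from limma. A change is called at a Benjamini-Hochberg adjusted p below 0.05 over all 10844 genes. The base from which the authors made linear values is not stated. The values run from 4.86 to 20.34 on the log2 scale and from 3.37 to 14.1 as natural logarithms, a range that favours base e. If it was e, each log2 change shrinks by the factor 0.693, so most folds are also given for that case. Array medians lay between 688 and 709, and hep itself read 3376 ± 264 in GOF, 3494 ± 170 in LOF and 3496 ± 586 in WT (SD, n = 3 each). Where the hep probes lie relative to the transgene and the allele lesions was not examined, so these values check no label. The JNK target puc, a phosphatase gene, read 6142 ± 761 in GOF, 1752 ± 55.7 in LOF and 2304 ± 270 in WT (log2 changes against WT 1.41 and -0.39, adjusted p = 2.5e-06 and 0.0832).

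With JNK activated, 5 of the 6 measured regulators fell and 0 rose, whereas 20.1% of all genes fell and 16.6% rose. The 5 were uif, salm, vvl, rib and btl, and only bnl was not past the threshold in limma. All 3 GOF arrays lay below all 3 WT arrays for the same 5 genes, as they did for 24.9% of all genes. After cyclic loess normalization 2074 genes were higher and 1750 lower in GOF, against 1801 and 2179 without it, and the 5 falls were still called. The median log2 change of the 6 genes was -0.95, against -0.035 over all genes. With hep reduced, 0 of 6 regulators changed in limma, where 4.72% of all genes changed in either direction. At an unadjusted p under 0.05, 3 of 6 differed between LOF and WT: vvl was higher in LOF, and btl and rib were lower.

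**Figure D1:**
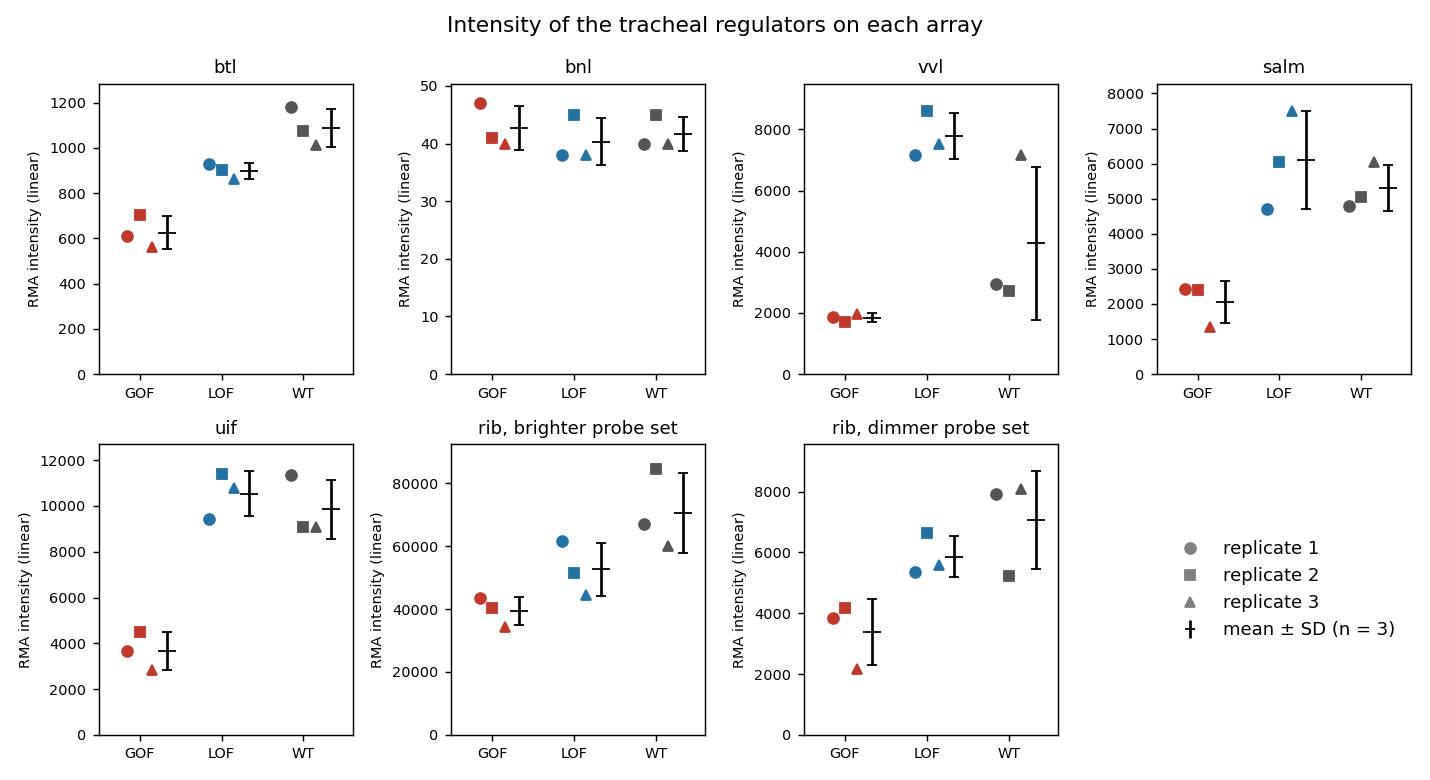
Linear RMA intensity (vertical axes, from 0) of the 7 probe sets on the GOF, LOF and WT arrays, with the replicate shown by the marker and the mean ± SD (n = 3) in black. For btl, vvl, salm, uif and both rib probe sets every GOF array is lower than every WT array, vvl on WT replicate 3 reads 7170 beside the LOF arrays, and bnl stays between 38 and 47.

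The FGF receptor gene btl had intensities of 610, 705 and 561 on the GOF arrays, 931, 902 and 861 on the LOF arrays, and 1180, 1075 and 1011 on the WT arrays. The groups did not overlap, with GOF lowest, LOF between and WT highest. This order without overlap was found for 278 genes (2.56%). btl fell in GOF against WT (log2 change -0.80, SE 0.10, adjusted p = 8.5e-05), a 1.74-fold lower level, or 1.47-fold with base e. In LOF against WT the log2 change was -0.28 (95% interval -0.50 to -0.05, adjusted p = 0.169), so a fall was not called, although all 3 LOF arrays were below WT, as for 12.5% of all genes. The difference between GOF and LOF was called (log2 change -0.53, adjusted p = 0.00166).

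The ligand gene bnl read 47, 41 and 40 in GOF, 38, 45 and 38 in LOF, and 40, 45 and 40 in WT. The 3 groups overlap fully. These values lie among the lowest of the table, since 0.879% of all values are below the GOF mean and 0.715% below the WT mean. Detection calls were not used here, so whether this probe set measured bnl RNA was not tested. Its log2 change was 0.03 in GOF (95% interval -0.19 to 0.26, adjusted p = 0.866) and -0.05 in LOF (-0.27 to 0.18, adjusted p = 0.837). Differences of bnl smaller than these intervals were not detectable.

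vvl, the POU factor gene, had the largest difference between GOF and LOF among the 6 regulators. It read 1865, 1709 and 1979 in GOF, 7171, 8616 and 7541 in LOF, and 2961, 2725 and 7170 in WT. GOF was below every other array and LOF above, but WT replicate 3 missed the lowest LOF array by 1 intensity unit. All LOF arrays lay above WT for 13.1% of genes, and GOF lowest with LOF highest was found for 212 genes (1.95%). vvl fell in GOF against WT (log2 change -1.07, SE 0.28, adjusted p = 0.0103), 2.09-fold, or 1.67-fold with base e. The LOF against WT change was 1.003 (SE 0.28, adjusted p = 0.0676), which is not past the threshold. Set directly against each other, GOF was 4.19-fold lower than LOF (log2 change -2.07, 95% interval -2.69 to -1.45, adjusted p = 0.000115), or 2.70-fold with base e. Only 7 of 10844 genes, vvl included, had a difference between GOF and LOF this far down.

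WT replicate 3 decides how the vvl result reads. It was 2.42-fold above the higher of the other WT arrays, and the WT spread of vvl on the log2 scale (SD 0.77) exceeded that of 99.9% of genes. Without this array the GOF change shrank to -0.62 and stayed past the threshold (adjusted p = 0.00192), while the LOF change grew to 1.45 and passed it (adjusted p = 0.000303). LOF then stood 2.74-fold above the mean of WT replicates 1 and 2, and GOF 1.54-fold below it. These folds and the 2.42-fold are of the values as deposited, and would be smaller with base e. The GOF against LOF difference does not use WT means and was -2.07 with and without the array.

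A WT replicate 3 higher by at least as much was seen for 7 genes, vvl included, and lower by as much for 1, whereas neither of the other WT arrays was higher by this much for any gene. Besides vvl the 7 were drl, Ssdp, Evi5, Jon99Fii, Amun and Hsp68, which are named because of these values. drl, a Ryk-family receptor gene of muscle and axon targeting, read 705, 888 and 4824 in GOF, 11236, 10349 and 13080 in LOF, and 1526, 1966 and 9138 in WT. The zinc finger gene peb (hindsight), which also acts in tracheal cells, read 713, 805 and 1689 in GOF, 4185, 4405 and 4088 in LOF, and 1553, 1483 and 3430 in WT. Like vvl, peb had its lowest mean in GOF and its highest in LOF, and was high in WT replicate 3. Unlike vvl, it was also raised in GOF replicate 3, which lay above WT replicates 1 and 2, so GOF and WT overlapped. tgo, the gene for the dimerization partner of Trachealess, read 25505, 26235 and 29100 in GOF, 35990, 39241 and 32069 in LOF, and 25076, 25186 and 37849 in WT. It too was highest within WT on replicate 3. What set this array apart was not tested.

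**Figure D2:**
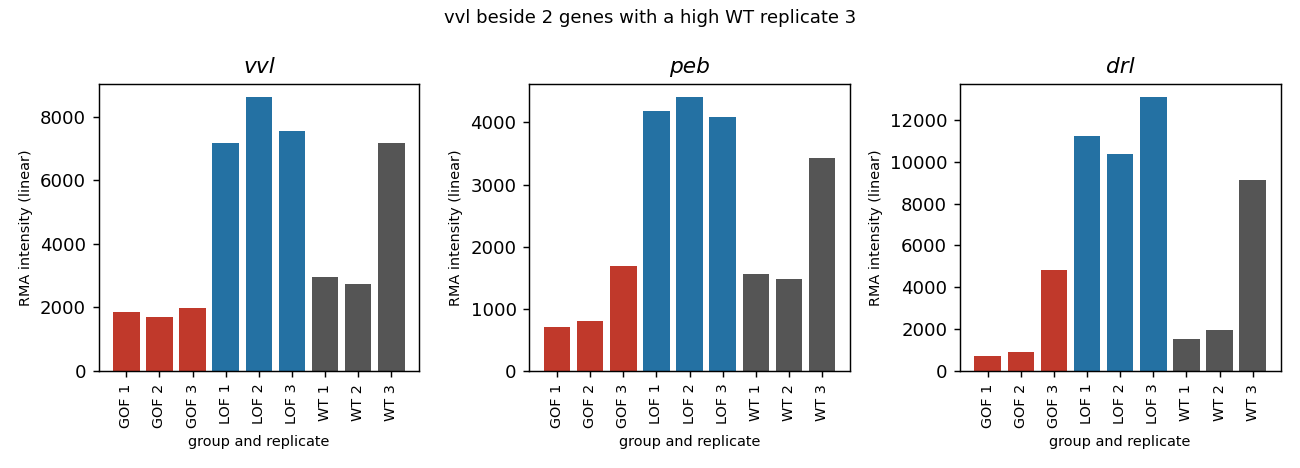
Linear RMA intensity (vertical axes, from 0) of vvl, peb and drl on each of the 9 arrays, 1 bar an array. In all 3 panels WT replicate 3 (7170, 3430 and 9138) is far above WT replicates 1 and 2, and the LOF bars are the highest.

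rib, the BTB factor gene, was measured by 2 probe sets. The brighter set read 43386, 40267 and 34418 in GOF, 61648, 51603 and 44634 in LOF, and 67069, 84649 and 60047 in WT. The dimmer set read 3844, 4160 and 2156 in GOF, 5369, 6655 and 5579 in LOF, and 7926, 5216 and 8087 in WT. In both sets GOF was below all other arrays, and LOF overlapped WT. The brighter set fell in GOF against WT (log2 change -0.83, SE 0.15, adjusted p = 0.000988), 1.78-fold, or 1.49-fold with base e. In the fit over all probe sets the dimmer set fell as well (log2 change -1.09, SE 0.24, adjusted p = 0.00432). In LOF the changes were -0.42 (adjusted p = 0.15) and -0.25 (adjusted p = 0.623). The difference between GOF and LOF was -0.41 for the brighter set, just short of the threshold (adjusted p = 0.0512), and -0.84 for the dimmer set (adjusted p = 0.0177 over probe sets).

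salm, the dorsal trunk selector gene, read 2421, 2400 and 1356 in GOF, 4711, 6060 and 7505 in LOF, and 4789, 5058 and 6037 in WT. GOF lay apart below, and LOF overlapped WT on both sides. salm fell in GOF against WT (log2 change -1.40, SE 0.22, adjusted p = 0.000376), 2.65-fold, or 1.96-fold with base e. Only 46 genes (0.424%) had a change as far down. In LOF the change was 0.18 (95% interval -0.30 to 0.67, adjusted p = 0.696). GOF replicate 3 was the lowest array, and without it the GOF change was -1.13 (adjusted p = 0.000284).

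salr, the related spalt gene next to salm on the chromosome, read 2863, 2609 and 2591 in GOF, 3262, 3410 and 3316 in LOF, and 2994, 3168 and 3220 in WT. GOF was again below all other arrays, but by far less. Its GOF change was -0.22 (SE 0.08, adjusted p = 0.0591), not past the threshold, and its GOF against LOF change was -0.31 (adjusted p = 0.0111). Whether the changes of the neighbours differ was not tested.

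uif, the apical EGF-repeat protein gene, read 3651, 4478 and 2821 in GOF, 9445, 11383 and 10798 in LOF, and 11348, 9088 and 9101 in WT. GOF was lower than every other array, and LOF and WT overlapped. uif fell in GOF against WT (log2 change -1.45, SE 0.16, adjusted p = 2.4e-05), 2.73-fold, or 2.01-fold with base e, a change that 39 genes (0.36%) matched or passed. In LOF the change was 0.10 (95% interval -0.24 to 0.45, adjusted p = 0.767). Against LOF, GOF was 2.93-fold lower (log2 change -1.55, adjusted p = 1.3e-05), or 2.11-fold with base e.

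Set directly against LOF, 4 of 6 regulators were lower in GOF by the test and 0 higher, where 19.4% of all genes fell and 17.7% rose. These were vvl, salm, uif and btl. All 3 GOF arrays were below all 3 LOF arrays for these and rib, as for 29.6% of genes. After cyclic loess normalization the split over all genes turned to 2158 higher and 1510 lower, against 1922 and 2101 in the main fit. The 4 calls and their direction held in that normalization.

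**Figure D3:**
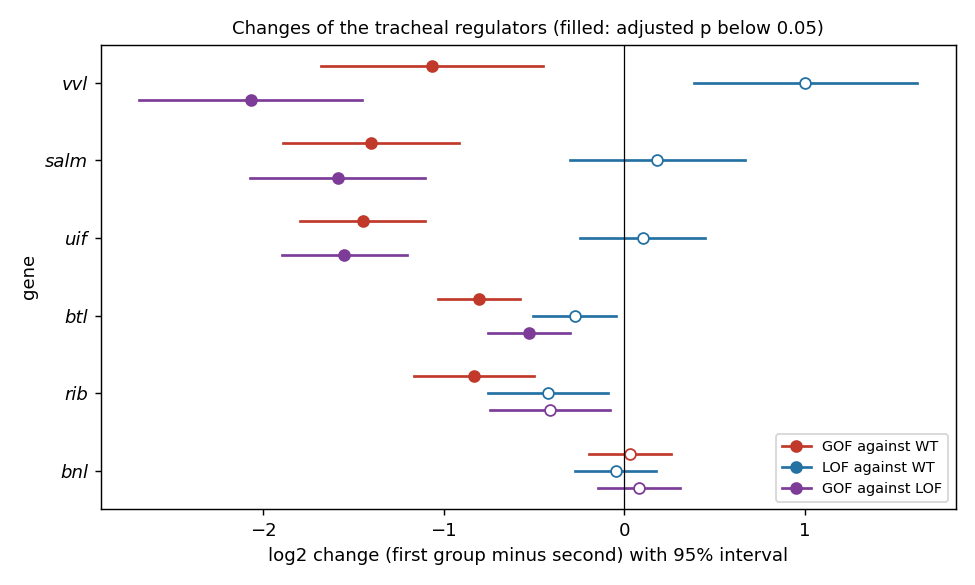
log2 change with its 95% interval (horizontal axis) for 6 genes (vertical axis) in each of the 3 pairs of groups, with filled points past the threshold. vvl, salm, uif, btl and rib lie left of 0 in GOF against WT, and no gene is filled when LOF is set against WT, where vvl at 1.003 lies farthest right.

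The regulators did not vary as a single block. Over the 9 arrays, which share the group differences, salm and uif correlated at 0.955, btl and uif at 0.911 and btl and rib at 0.889 (Pearson, log2 scale). vvl correlated at 0.813 with salm and 0.77 with uif, but at 0.302 with rib, and bnl at -0.346 to 0.105 with the others. Within GOF, replicate 3 was the lowest array for btl, salm, uif and both rib probe sets, and the highest for vvl. These are descriptions, since the 9 points hold the group differences.

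The genes most like each regulator over the 9 arrays, by Pearson correlation, differed between regulators. For salm they were nkd, an inhibitor of Wingless signalling (0.993), Tmep (0.987) and CG13300 (0.984). nkd averaged 3519 ± 859 in GOF, 7497 ± 975 in LOF and 7158 ± 735 in WT (SD, n = 3). For uif they were the kinase gene Snrk (0.991), esg, a zinc finger gene of tracheal fusion cells (0.987), and CG13001 (0.986). For vvl they were the transcription factor gene disco (0.98), CG9932 (0.979) and Con, a cell adhesion gene (0.979). Con averaged 571 ± 169 in GOF, 2419 ± 54.6 in LOF and 1248 ± 625 in WT, with 1965 on WT replicate 3 against 816 and 964. For btl they were CG3652 (0.978), ko (0.976) and Tbp, which encodes the TATA-binding protein (0.975), each lowest in GOF and highest in WT. Tbp averaged 941 ± 51.7 in GOF, 1230 ± 120 in LOF and 1508 ± 117 in WT. For rib they were Ugt37C1 (0.975), CG7492 (0.965) and CG30414 (0.96). For bnl they were fuss (0.936), Osi22 (0.919) and CG9368 (0.905), all with means under 126. A correlation over 0.9 was reached by 471 genes for uif, 318 for btl, 297 for salm, 180 for vvl, 89 for rib and 3 for bnl.

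Among other transcription factors of the tracheal system, 7 of 11 measured genes fell in GOF and 1 rose (median log2 change -0.70, against -0.035 over all genes). Of all genes, 20.1% fell and 16.6% rose in GOF. esg read 5663, 6024 and 4902 in GOF against 11607, 9104 and 10741 in WT (log2 change -0.92, SE 0.12, adjusted p = 7.4e-05). knrl and kni, the paired Knirps-family genes of dorsal and visceral branches, fell by 0.80 and 0.90 on the log2 scale (adjusted p = 0.000227 and 0.000284). grh (-1.27), aop (-0.70), jing (-0.70) and peb (-1.01) completed the falls, and dysf, a bHLH-PAS gene of fusion cells, rose (0.37, adjusted p = 0.0139). The calls of peb and dysf ended without WT replicate 3 (adjusted p = 0.136 and 0.0555). In LOF, 0 of 11 changed in limma, where 4.72% of all genes did, with 2 at an unadjusted p under 0.05. The smallest p-values belonged to peb (log2 change 1.08, adjusted p = 0.0949), aop (-0.30, adjusted p = 0.224) and tgo (0.31, adjusted p = 0.288). Without WT replicate 3, tgo (0.50, adjusted p = 0.0382) and peb (1.48, adjusted p = 0.0219) rose in LOF, and without GOF replicate 3, which alters only the pooled spread here, peb did (adjusted p = 0.0254).

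Of the FGF signalling chain and related FGF genes, 6 of 10 measured genes fell in GOF and 1 rose (median -0.43), where 20.1% of all genes fell and 16.6% rose. The list held 15 genes, of which stumps, Ras85D, Raf, rl and sfl were not analysed here, so the chain was covered in part. The 10 include htl and its ligand genes pyr and ths. The adaptor gene drk rose, at 1947, 1908 and 1841 in GOF against 1223, 1030 and 1215 in WT (log2 change 0.72, SE 0.10, adjusted p = 0.000139). The exchange factor gene Sos fell, at 2378, 2296 and 2309 against 3333, 3360 and 3610 (-0.56, adjusted p = 0.000216), so adjoining steps of the chain went opposite ways. Hs2st, a heparan sulphate enzyme gene, fell (-0.53, adjusted p = 0.000541), as did the mesodermal FGF receptor gene htl (-0.50), sty, which encodes the feedback inhibitor Sprouty (-0.64), the MEK gene Dsor1 (-0.34) and sgl (-0.35). Hs2st read only 57, 62 and 65 in GOF against 93, 86 and 87 in WT, near the bottom of the range. The ligand genes of htl were not called, pyr at 4017, 3699 and 4040 in GOF against 4362, 3970 and 3487 in WT (adjusted p = 0.99) and ths at -0.54 (adjusted p = 0.0726). In LOF, 0 of 10 changed in limma, where 4.72% of all genes did. An unadjusted p under 0.05 was found for 3: Hs2st (-0.28, adjusted p = 0.1), sty (0.47, adjusted p = 0.186) and sgl (-0.28, adjusted p = 0.205). The GOF calls of sty and sgl ended without WT replicate 3 (adjusted p = 0.0659 and 0.0959). Without GOF replicate 3 the phosphatase gene csw also rose in GOF (adjusted p = 0.0309), sgl was not called (adjusted p = 0.108), and sty rose in LOF (adjusted p = 0.0261).

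Of other signals and surface proteins of branch patterning, 5 of 10 fell in GOF and 3 rose (median -0.65), where 20.1% of all genes fell and 16.6% rose. The signal gene hh read 245, 219 and 255 in GOF against 486, 500 and 505 in WT (log2 change -1.05, adjusted p = 2.4e-06). Egfr, the EGF receptor gene, fell (-0.96, adjusted p = 8.3e-05), as did its ligand gene spi (-1.02). trn, a leucine-rich repeat gene of branch fusion, read 2255, 1876 and 2522 in GOF against 4211, 3919 and 5831 in WT (-1.06, adjusted p = 0.000163), and its paralogue caps also fell (-0.64). The 3 that rose belong to the BMP pathway: dpp (0.31), the receptor gene put (0.58) and the mediator gene Mad, at 2862, 2771 and 4453 in GOF against 1616, 1434 and 1877 in WT (1.01, adjusted p = 0.00112). The calls of dpp and put ended without GOF replicate 3 (adjusted p = 0.0629 and 0.0519). The BMP receptor gene tkv was at -0.51 (adjusted p = 0.0847). In LOF, 0 of 10 changed in limma, where 4.72% of all genes did, and 2 had an unadjusted p under 0.05. The nearest to a call was caps (0.48, adjusted p = 0.0564), before hh (-0.23, adjusted p = 0.17) and Egfr (-0.27, adjusted p = 0.263). caps rose in LOF without WT replicate 3 (adjusted p = 0.0407) and without GOF replicate 3 (adjusted p = 0.0369).

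Tube size, lumen and junction genes had the largest share of falls among these 4 lists, 11 of 15 in GOF with 0 rises (median -0.71). Over all genes 20.1% fell and 16.6% rose. verm, the luminal chitin deacetylase gene, read 57210, 55388 and 50998 in GOF against 129687, 130552 and 121753 in WT (log2 change -1.22, adjusted p = 4.3e-06). The septate junction genes cora (-1.13, adjusted p = 1.9e-05) and pck (-0.90, adjusted p = 2.2e-05) fell, and the luminal protein gene Gasp fell furthest, at 255, 375 and 562 in GOF against 1660, 1487 and 1295 in WT (-1.96). serp, which is paired with verm in lumen chitin, was at -0.71 (adjusted p = 0.0686). In LOF, dpy, which encodes a giant apical matrix protein, rose (5353, 4263 and 4748 against 2680, 2865 and 3083, log2 change 0.73, adjusted p = 0.00828), and the claudin gene kune fell (-0.47, adjusted p = 0.0403). The chitin synthase gene kkv was next (0.37, adjusted p = 0.0853) and rose without GOF replicate 3 (adjusted p = 0.0412). Over all genes 4.72% changed in LOF. Without WT replicate 3 the LOF call of kune ended (adjusted p = 0.0628), as did the GOF calls of kkv and knk (adjusted p = 0.125 and 0.0958). The GOF call of kkv also ended without GOF replicate 3 (adjusted p = 0.153), where serp was called as lower in GOF (-0.97, adjusted p = 0.0129). dpy was at -0.03 in GOF (adjusted p = 0.902).

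**Figure D4:**
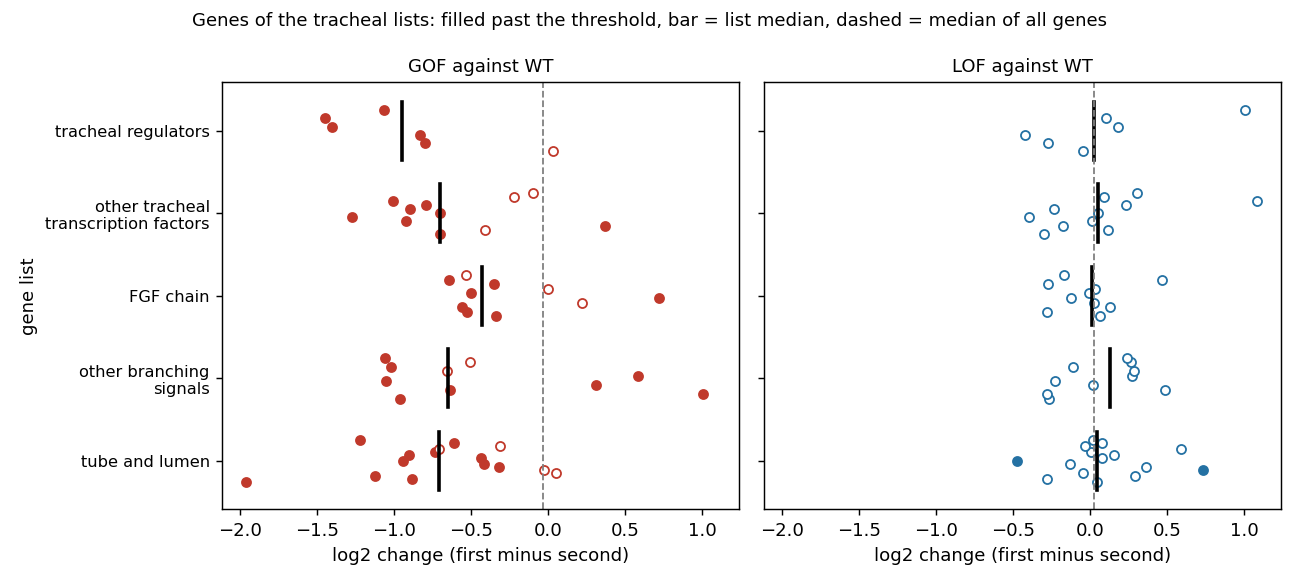
log2 change (horizontal axes) of each measured gene in 5 lists (vertical axis) for GOF against WT and LOF against WT, filled where past the threshold, with the list median as a bar and the median of all genes dashed. In GOF all 5 list medians lie between -0.95 and -0.43, left of the all-gene median of -0.035, while in LOF only dpy and kune are filled.

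Transcripts of other cells and of early embryos moved with the same groups. Of 14 measured maternal and early genes, 8 rose in GOF and 1 fell, where 16.6% of all genes rose and 20.1% fell. The call of grk, 1 of the 8, ended without WT replicate 3 (adjusted p = 0.15). The summed intensity of the 14 genes was 33849 to 52442 in GOF, 17652 to 21318 in LOF and 18536 to 20911 in WT. In LOF and WT most of this sum was stau, which was not called, and gcl, the gene that fell in GOF. stau read 8301, 7212 and 7022 in LOF and 7407, 10004 and 8485 in WT. On the log2 scale the mean of the list lay 0.27 to 0.5 above the WT mean on the LOF arrays. smg, a regulator of maternal mRNA decay that is named because of its values, read 10412, 14359 and 14523 in GOF, 1390, 1566 and 1356 in LOF, and 566, 617 and 709 in WT (log2 changes against WT 4.36 and 1.19). In LOF 4 of the 14 rose, as did 147 of all 10844 genes. The lowest value in the list was 92, and the lowest of all deposited values was 29. No value could be 0, so whether each maternal RNA was present in a group was not tested. The part of these transcripts in the falls of the regulators was not tested.

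Falls in GOF were also found in each of 7 lists of other tissues. Of all genes, 20.1% fell in GOF. The summed intensities are linear, so they follow the brightest genes of a list. In salivary gland and duct genes 5 of 5 fell, with a summed intensity of 4544 to 5575 in GOF, 10394 to 11151 in LOF and 9384 to 12832 in WT. Without WT replicate 3 or without GOF replicate 3 it was 3 of 5, as fkh and eyg were then not called. In ventral midline genes 3 of 4 fell (13450 to 16324 in GOF, 24650 to 29134 in LOF, 22321 to 33688 in WT). The midline sum was mostly spi (11874 to 15113 in GOF), which, like sli, is also in the branch patterning list. aos, 1 of the 3, read 54, 44 and 53 in GOF against 60, 70 and 64 in WT, near the bottom of the range. In neuron genes 3 of 5 fell (10846 to 12722 in GOF, 23059 to 25170 in LOF, 21970 to 25808 in WT). The neuron sum hides opposite LOF differences, neither past the threshold: elav averaged 4631 in LOF against 9408 in WT, and fne 17679 against 12732. The neuron call of onecut ended without WT replicate 3 (adjusted p = 0.06). In oenocyte genes 2 of 3 fell (2815 to 3280 in GOF, 5388 to 5660 in LOF, 4190 to 5415 in WT). The oenocyte call of svp ended without WT replicate 3 (adjusted p = 0.117) and without GOF replicate 3 (adjusted p = 0.0557), where Cyp4g1 was called as lower (adjusted p = 0.00888 and 0.0408). In amnioserosa genes 3 of 5 fell (21886 to 23860 in GOF, 24916 to 30480 in LOF, 41158 to 51395 in WT). Ance alone made up most of the amnioserosa sum (17271 to 19245 in GOF, 19279 to 24353 in LOF, 35014 to 45334 in WT). Of 6 listed muscle genes only Mlp84B and twi were measured, and these 2 fell (3022 to 3033 in GOF, 4038 to 4500 in LOF, 3784 to 4821 in WT). In hemocyte genes 6 of 6 fell (50196 to 55308 in GOF, 137357 to 153985 in LOF, 89160 to 104907 in WT). Most of the hemocyte sum was Ppn (34339 to 39045 in GOF). None of these 7 lists held a gene that rose in GOF, and the lowest value in any of them was 44. In LOF, 1 salivary gene and 1 amnioserosa gene fell, and 1 neuron gene and 3 hemocyte genes rose. Of all 10844 genes, 365 fell and 147 rose in LOF. The LOF calls of brp among the neuron genes and PPO2 among the hemocyte genes ended without WT replicate 3 (adjusted p = 0.0628 and 0.0958), where fkh of the salivary list (0.93, adjusted p = 0.0163) and svp of the oenocyte list (0.57, adjusted p = 0.0407) rose. Without GOF replicate 3, the neuron genes elav (-0.996, adjusted p = 0.00626) fell and fne (0.48, adjusted p = 0.0278) rose in LOF. The part of these tissues in the regulators' changes was not tested.

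**Figure D5:**
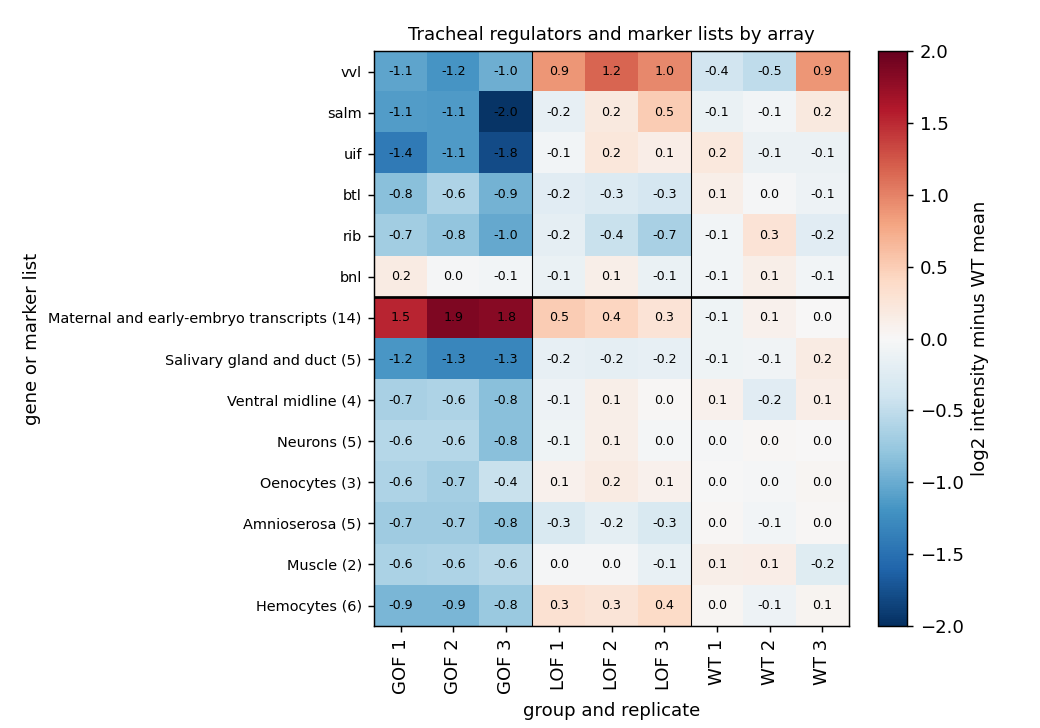
Intensity on the log2 scale minus the WT mean, for 6 regulators (upper rows) and the mean of 8 marker lists (lower rows, number of genes in brackets), on each array (columns). The GOF columns are negative for 5 regulators and 7 marker lists and positive for the maternal list (1.53 to 1.86), and vvl is at 0.89 on WT replicate 3 and between 0.89 and 1.16 on the LOF arrays.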

How the data were processed

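The deposited values are intensities on a linear scale. The submitters' processing notes name RMA for them, with no version or settings. The values reach 1331513, and 239 probe sets exceed 65535, the largest number a 16-bit scanner records. Their natural logarithms run from 3.37 to 14.1. The platform annotation gave 1 gene for 12443 of 14010 probe sets and several for 327. Another 1196 had no name here, and 44 control sets were set aside. Gene symbols were brought up to date through the RefSeq gene table of Release 6 plus ISO1 MT. For the 1209 genes with several probe sets the set with the highest mean stood for the gene, giving 10844 genes. Intensities became log2(value + 1), which were fitted with limma 3.58.1 under R 4.3.3 over the 9 arrays together, with a mean for each group (lmFit, eBayes, 6 residual and 5.39 prior degrees of freedom, two-sided, no filter). A second fit over probe sets served the dimmer rib set. The median SE was 0.11, a precision set by having 3 arrays in each group. In simulated data with 200 of 10844 genes changed between GOF and WT, the test found 67.2% of genes given a log2 change of 0.5, 92.5% of those given 1, and 100% of those given 2. False calls made up 6.49%. The simulated noise was independent between genes, and the data had 3980 genes called in GOF and 512 in LOF against WT. The cut-off depends on how many genes change, so these rates need not carry over to the data.

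The members and lists were chosen with earlier results of these data known. The named genes are the 6 measured members, the 3 genes most correlated with each, and list genes by smallest p, with further list members given by value. Listed symbols phl, argos, ATPalpha and dys were read as Raf, aos, Atpalpha and dysf. Listed genes without a probe set were not analysed here. Alternatives were single arrays left out, the replicate block, a pseudocount of 64, no dim genes, other normalizations, probe-set and fit settings, and base e.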

Additional observations from a re-analysis of the deposited data

How the results depend on the processing

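Over 19 alternatives, 329 of 339 log2 changes of regulators kept their direction where called and their side of the threshold, and 10 passed it only in an alternative. Of these, 9 were rib in GOF against LOF (adjusted p from 0.00478 to 0.201 over the alternatives), and the other was vvl in LOF without WT replicate 3. Several alternatives could move little. Base e leaves every p as it was, and averaging probe sets alters the change of rib only. Leaving out an array of the third group alters only the pooled spread. The 339 are therefore not independent checks. No called change of a regulator was lost: in GOF against WT the highest adjusted p was 0.038 for vvl, 0.00706 for rib, 0.00243 for salm, 0.000747 for btl and 0.00027 for uif. The number of regulators changed in LOF against WT ran from 0 to 1 when single arrays were left out. The number of all genes changed in LOF against WT was 512. With single arrays left out it ran from 138 (without WT replicate 1) to 716 (without GOF replicate 3), and with array weights it was 740. It was 161 without LOF replicate 2, 260 without LOF replicate 1 and 290 without LOF replicate 3. With the replicate block the counts were 3993 for GOF, 540 for LOF and 3988 for GOF against LOF, and of the regulators only rib in GOF against LOF changed its side (adjusted p = 0.0191). Same-numbered arrays had correlations of their deviations of -0.18 to 0.187, 3 of 9 pairs lay over 0.1, and 3 of 9 arrays correlated best with their own number, so the numbers were not taken as pairs. The gene list counts without WT replicate 3 and without GOF replicate 3 were chosen after seeing the data. Intensities near the bottom of the range limit bnl, which the filter on dim genes removes.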
